A study of Mus musculus with 4 samples.

Results

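The genes of the cytosolic translation machinery were taken from the table by name. Symbols of ribosomal proteins (Rpl, Rps, Rplp and Rpsa) and symbols beginning with Eif1 to Eif6, Eef1 or Eef2 were kept, which gave 143 of 19609 gene rows. Of these, 81 were ribosomal proteins and 62 were translation factors, with their regulators and modifying enzymes included. The ribosomal proteins comprised 45 genes of the large subunit, 31 of the small subunit and 5 paralogs. The factors included 14 genes of the eIF3 complex, 10 eIF4 factors, 4 genes for subunits of eIF2 and 4 for its kinases. There were also 5 subunits of eIF2B and 5 elongation factors. The rows were selected by name alone, but the group was chosen with earlier results of these data known.

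Nuclei of kidney cortex from 4 male mice of a mixed strain were profiled by single nucleus RNA sequencing, with 1 mouse in each group. The control mice carried TRE-hKLF6 alone, and the hKLF6 OE mice carried CAG-rtTA with TRE-hKLF6, so that human KLF6 was driven in every tissue in which the CMV-chicken beta-actin promoter is active. All mice received a doxycycline diet for 1 week, and in each genotype 1 mouse was given 1 injection of aristolochic acid I (AAI, a plant toxin taken up by the proximal tubule) and was killed 24 hours later. The authors deposited the mean normalised expression of every gene in each of 23 clusters of nuclei of each mouse, which made 92 columns, each summing to 10000. The age of these mice was not given in the sources used here.

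A ribosome consists of a small subunit, which reads the mRNA, and a large subunit, which joins the amino acids. Initiation factors bring the small subunit, the initiator tRNA and the capped mRNA together, and elongation factors then move the ribosome along it. Initiation slows when a kinase phosphorylates the eIF2 complex or when a binding protein holds the cap-binding factor eIF4E. The mRNAs of ribosomal proteins and of several factors begin with a C followed by a run of pyrimidines, the 5′ terminal oligopyrimidine (TOP) motif, through which mTOR controls their translation.

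The start sites are shown because they are the known shared feature of these mRNAs. RefSeq starts (build GRCm38.p6) were matched for 61 of 81 ribosomal proteins and 49 of 62 factors. The run searched for was a C at the annotated start followed by at least 4 bases that were each C or T, on the gene's strand. It was present in 13 ribosomal proteins (21.3%) and 2 factors (4.08%), against 3.13% of the 13781 genes of the table with a matched start. A gene with several starts counted when any of them had the run. When such a run could begin within 5 bases of the start on either side, the shares were 47.5%, 28.6% and 23.3%. The sequence CCGGAAGT was searched on both strands from 250 bases before to 50 bases after the start. It was found for 19.7% of ribosomal proteins, 18.4% of factors and 7.06% of all genes with a matched start. Windows of 30 bases around the start are given below for ribosomal proteins of both subunits and the stalk and for both factors with an exact match, with capitals from the start base to the end of the C and T run. Rps6 is at chr4:86857353-86857382 (minus strand), Rps18 at chr17:33955651-33955680 (minus), Rpl28 at chr7:4792950-4792979 (plus), Rpl14 at chr9:120571502-120571531 (plus) and Rplp2 at chr7:141447636-141447665 (plus). Eif2s3x is at chrX:94212637-94212666 (minus) and Eif3f at chr7:108934400-108934429 (plus).
Rps6: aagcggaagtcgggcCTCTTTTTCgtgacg
Rps18: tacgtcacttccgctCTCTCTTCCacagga
Rpl28: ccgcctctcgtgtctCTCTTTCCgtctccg
Rpl14: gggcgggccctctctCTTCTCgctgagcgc
Rplp2: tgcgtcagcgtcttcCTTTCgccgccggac
Eif2s3x: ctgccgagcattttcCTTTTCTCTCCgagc
Eif3f: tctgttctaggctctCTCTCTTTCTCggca

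Values below are either shares, which are percentages of a column's total, or normalised expression on the scale of 10000 per column. Differences are of log2(value + 1), so a difference understates the fold change of a low value. A gene entered a comparison when its value was at least 0.5 on either side and was called at a difference of 0.2 or more. Where 2 mice could be compared within themselves, both had to pass in the same direction. With 1 mouse per group there was no test and no error between mice, so all differences between conditions compare single mice. The table gives neither nucleus numbers nor read depth, so counting error is unknown. Many members were low: the mean over the 92 columns reached 0.5 in 33 ribosomal proteins and 22 factors and was under 0.1 in 12 and 5. Reads of ribosomal protein genes can also be shared with their many processed pseudogenes.

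Most marker genes were highest in the cluster that carries their cell type's name. The exceptions included Flt1, an endothelial receptor, which in the control mouse was 22.2 in EC-2 but 3.70 in EC-1 and 6.19 in the cluster named Macrophage, so neither EC-1 nor Macrophage is read as a pure cell type here. Of 2 mesangial or stromal markers, Pdgfrb was highest in MC (mean 2.16) but Itga8 was 0.995 there and 1.19 in Macrophage. Slc22a6, a proximal tubule transporter, was 3.32 in MC, its second highest cluster, so MC is a name as deposited rather than a pure population. The table has no row for human KLF6, and mouse Klf6 does not check the transgene; averaged over the 5 normal tubule clusters it was 0.215 in control, 0.406 in control with AAI, 0.137 in hKLF6 OE and 0.327 in hKLF6 OE with AAI. Between 15.1% and 63.4% of genes were listed at 0 in a column, and in 15 columns at least 50% were. In InjuredPT-A, a cluster of injured proximal tubule nuclei, this share was 62.6% in control and 40.8% in hKLF6 OE but 22.5% and 22.2% in the corresponding mice with AAI. Slc22a6 was highest in this cluster (mean 4.76). Of the injury markers, Polr2a (12.6) and Lcn2 (0.0283, near the floor) were highest there. Havcr1 (0.382), Krt20 (0.395) and Cxcl1 (2.30) were highest in InjuredPT-B, the other injured cluster.

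Ribosomal protein transcripts differed between cell types in much the same order in the 4 mice. Averaged over mice, InjuredPT-A had the highest summed share, followed by MC (named for mesangial cells), EC-2 and Macrophage, and DCT_CNT (distal convoluted and connecting tubule) had the lowest. In InjuredPT-A the 81 genes summed to 0.784% in control, 0.646% in control with AAI, 1.45% in hKLF6 OE and 0.660% in hKLF6 OE with AAI. In MC the sums were 0.499%, 0.707%, 1.10% and 0.732% in the same order. InjuredPT-A was above MC in the mice without AAI, where its columns had many genes at 0, and below MC in both AAI mice. Both clusters were above DCT_CNT in every mouse, where the sums were 0.190%, 0.253%, 0.280% and 0.205%. The 5 normal proximal tubule clusters (3 of segment S3 and 2 of segments S1 and S2) averaged 0.239%, 0.288%, 0.393% and 0.241%, and PT-S1-S2-1 was the highest of them in every mouse with 0.326%, 0.413%, 0.544% and 0.329%.

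The 62 factors summed to a narrower range of shares than the ribosomal proteins. In the normal proximal tubule they made up 0.331% in control, 0.374% in control with AAI, 0.384% in hKLF6 OE and 0.344% in hKLF6 OE with AAI. In InjuredPT-A they made up 0.555%, 0.812%, 0.752% and 0.756%, and in MC 0.466%, 0.636%, 0.614% and 0.620%. The injured cluster was thus above the normal proximal tubule mean in every mouse for both groups of genes. The lowest factor share of any cluster and mouse was in podocytes of hKLF6 OE with AAI, at 0.279%.

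**Figure D1:**
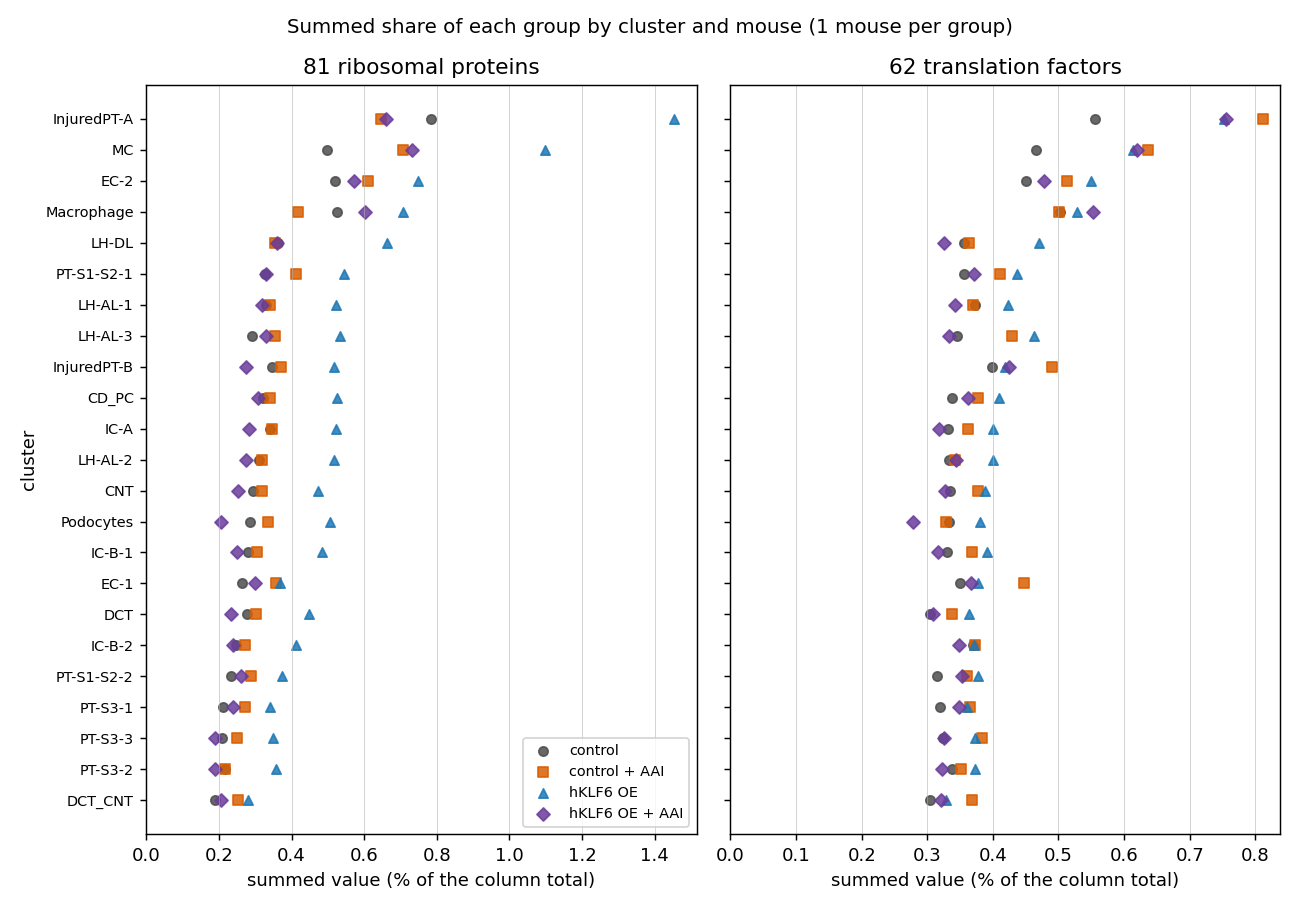
Summed share of 81 ribosomal proteins (left) and 62 translation factors (right) in each cluster, as a percentage of the column total; each point is 1 cluster of 1 mouse, and clusters are ordered by their mean ribosomal protein share. InjuredPT-A and MC are at the top of the left panel, and the hKLF6 OE mouse without AAI lies to the right of the control mouse without AAI in all 23 clusters.

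Across the clusters of a mouse, mitochondrially encoded transcripts were high where the ribosomal protein share was high. They made up 0.626% to 7.69% of a column. In InjuredPT-A their share was 6.22% in control, 1.84% in control with AAI, 7.69% in hKLF6 OE and 2.34% in hKLF6 OE with AAI, and in the normal proximal tubule it was 1.61%, 1.11%, 2.26% and 1.01%. Across the 23 clusters of a mouse, the Spearman correlation of the ribosomal protein share with the mitochondrial share was 0.963 in control, 0.723 in control with AAI, 0.922 in hKLF6 OE and 0.813 in hKLF6 OE with AAI. For the factor share the correlations were 0.816, 0.440, 0.862 and 0.596. The points of a mouse share 1 library, and the shares in a column have the same total, so these are descriptions. Transcripts of other cells were also present: 16 abundant proximal tubule mRNAs summed to 0.720% to 4.61% of a column in the 16 clusters outside the proximal tubule, and to 3.01%, 2.40%, 3.08% and 1.97% in the normal proximal tubule of control, control with AAI, hKLF6 OE and hKLF6 OE with AAI. Kap, a kidney androgen-regulated mRNA on that list, had a median of 75.6 over those 16 clusters in control and 56.4 in the normal proximal tubule. Across the 16 clusters, the Pearson correlation of the ribosomal protein share with the sum of these mRNAs was 0.718, 0.807, 0.885 and 0.909 in the same order of mice (Spearman 0.544, 0.550, 0.638 and 0.682), with MC high in both. The part of RNA carried over from outside the nuclei in these shares was not tested.

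**Figure D2:**
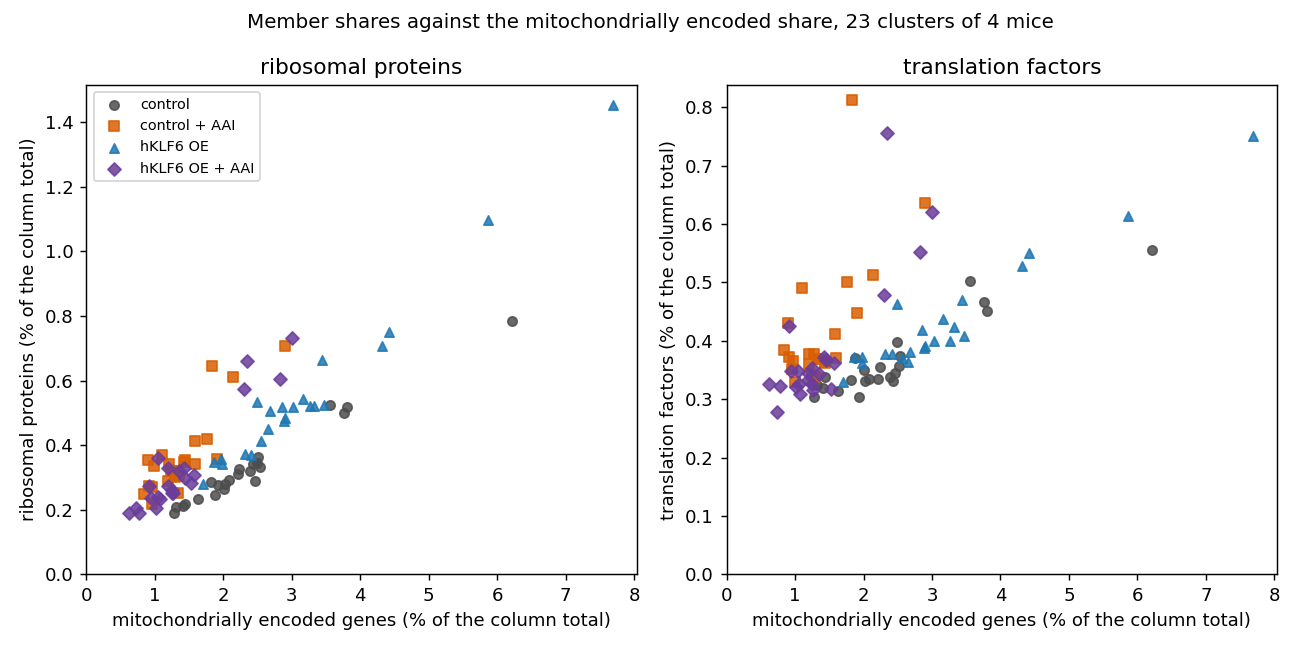
Summed share of ribosomal proteins (left) and of translation factors (right) against the share of mitochondrially encoded genes, all as percentages of the column total; each point is 1 of 23 clusters of 1 of 4 mice. The ribosomal protein share is higher where the mitochondrial share is higher within each mouse, and the factor points of the AAI mice sit above those of the mice without AAI at the same mitochondrial share.

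When each cluster was set against the average of the remaining 22 in its own mouse, MC and EC-2 had the most ribosomal proteins called higher in all 4 mice among clusters outside the injured tubule. The clusters were built from the expression of the same nuclei, so this comparison is a description. In MC, 25 ribosomal proteins were higher and none lower among 39 that passed the minimum, where 11.7% of all genes passing it were called higher. The proximal tubule mRNAs made up 3.20%, 2.62%, 4.61% and 2.96% of MC and 2.83%, 2.27%, 3.39% and 2.06% of EC-2, against 1.41%, 1.06%, 1.90% and 0.835% of DCT, and their part in the difference between cell types was not tested. Rpl8, a large subunit protein near the catalytic centre, was 1.15, 1.97, 3.76 and 1.35 in MC of control, control with AAI, hKLF6 OE and hKLF6 OE with AAI. In DCT_CNT it was 0.375, 0.605, 0.856 and 0.291, below MC in each mouse. In EC-2, 13 of 38 were higher (17.8% of all genes), and in Macrophage 3 were, namely Rpl8, Rpl7 and Rps9 (12.1% of all genes). InjuredPT-A, compared in the AAI mice alone, had 41 of 47 called higher in both, against 39.8% of all genes. Only 26 ribosomal proteins passed in PT-S3-2, and 27 in InjuredPT-B, compared in the same AAI mice. Some of those counted in MC, EC-2 and InjuredPT-A thus passed only through the high value of that cluster, so part of these counts had to be high.

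The lowest ribosomal protein levels were in segment S3 of the proximal tubule and in DCT_CNT. In PT-S3-2, 19 of 26 that passed were lower in all 4 mice (23.5% of all genes), as were 13 in PT-S3-3 (19.6%) and 8 in PT-S3-1 (17.7%). None was called lower in PT-S1-S2-1 and 1 was in PT-S1-S2-2 (16.3%). In DCT_CNT 9 were lower, against 8.31% of all genes. Eef1a1, which delivers aminoacyl-tRNA to the ribosome, followed the same clusters. It was 7.31, 13.6, 14.9 and 13.6 in MC and 2.28, 4.73, 3.46 and 3.12 in DCT_CNT of control, control with AAI, hKLF6 OE and hKLF6 OE with AAI. Its difference from the other clusters was between 0.60 and 1.34 in MC and between 0.61 and 0.96 in EC-2 over the 4 mice, and between -1.04 and -0.31 in DCT_CNT.

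Factors fell into those that varied across columns like the ribosomal proteins and those that did not. Over the 92 columns, the Spearman correlation of each of the 33 better-measured ribosomal proteins with the sum of the others was between 0.625 and 0.873, with a median of 0.749. For the 22 better-measured factors it ranged from -0.298 to 0.947, with a median of 0.218. Eef1a1 (0.947), the translocation factor Eef2 (0.862), the start-site selection factor Eif1 (0.743) and Eif5a (0.714), which relieves stalled ribosomes, were at the top. The cap-binding factor Eif4e had a correlation of 0.00, the eIF4E transporter Eif4enif1 had -0.16 and the scaffold Eif4g3 had -0.30. These columns come from 4 libraries and share their totals. Among all 4217 genes of sufficient level, the sum of the ribosomal proteins was most alike to Fth1 (0.956), Tmbim6 (0.882), Tpt1 (0.874), Ftl1 (0.873) and Cox8a (0.871). Fth1 and Ftl1 encode the subunits of ferritin, and Tpt1 is another mRNA of the TOP class.

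Some factors stood out in 1 or a few clusters. Eif2ak3, which encodes PERK, the eIF2 kinase of the endoplasmic reticulum, was higher than in the other clusters in LH-AL-2 (ascending limb of the loop of Henle) in all 4 mice, at 0.886 in control, 1.76 in control with AAI, 0.991 in hKLF6 OE and 1.66 in hKLF6 OE with AAI. It was also higher in LH-AL-1, at 1.14, 1.41, 0.918 and 1.36, but lower in LH-AL-3, where at least 50% of genes were listed at 0. In the 2 AAI mice Eif2ak3 was also higher in InjuredPT-A, by 0.36 to 0.77, and in InjuredPT-B, by 0.55 to 0.65. Eif4enif1 was higher in IC-B-2 (intercalated cells), at 1.92, 1.64, 1.77 and 1.16, by 0.35 to 0.84. Eif4g3 was higher in PT-S3-2 and PT-S3-3 and lower in IC-A and, in the AAI mice, in InjuredPT-A. In MC the 7 factors higher in all 4 mice were Eef1a1, Eef2, Eif1, Eif5a, Eif4g2, a relative of the eIF4G scaffolds, and the eIF3 subunits Eif3b and Eif3h.

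**Figure D3:**
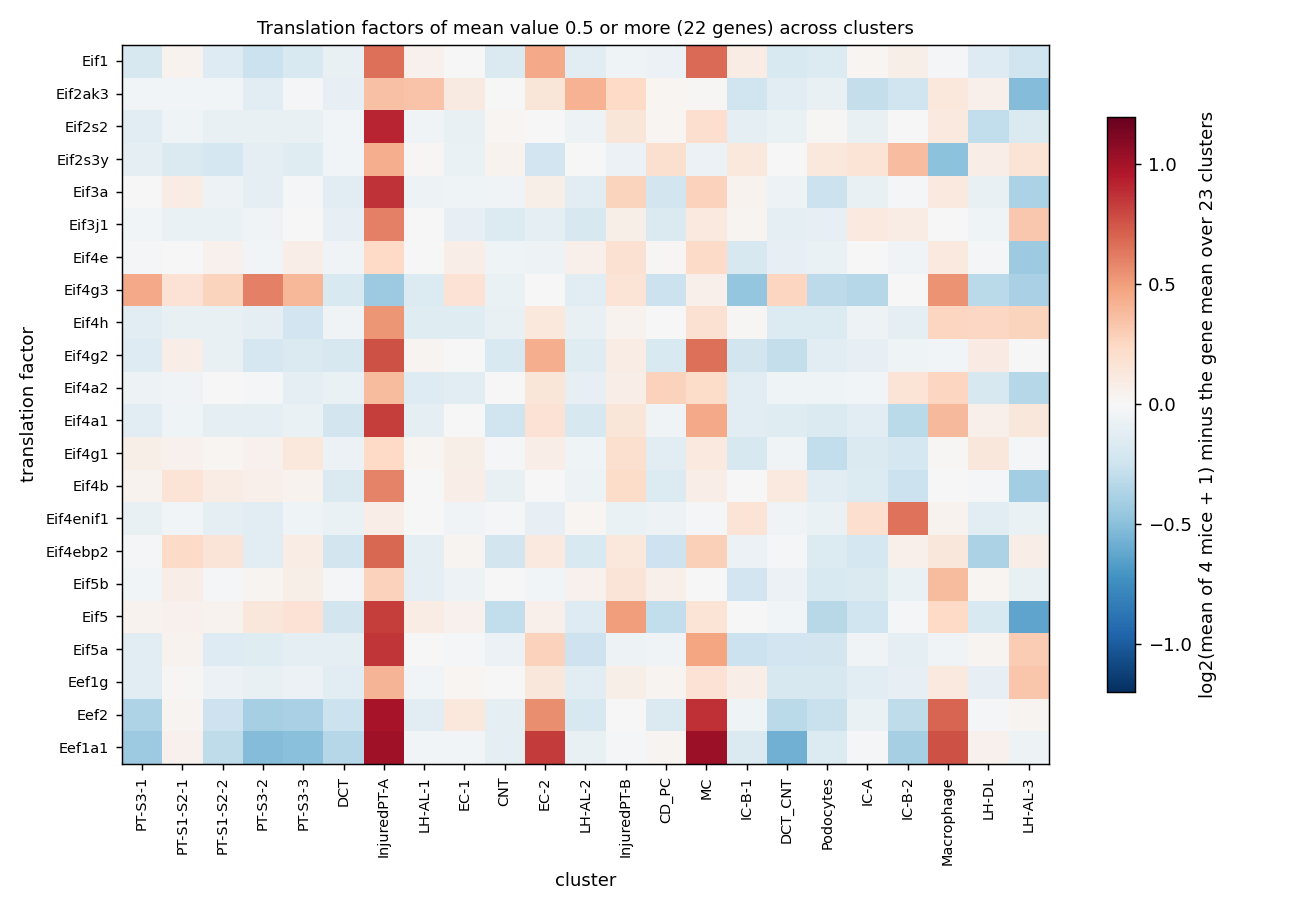
Each of the 22 translation factors with a mean value of at least 0.5 (rows) in each cluster (columns); colour is log2(mean of 4 mice + 1) minus the mean of the gene over the 23 clusters, from -0.63 to 1.02. InjuredPT-A is high for most factors and low for Eif4g3, Eef1a1 and Eef2 are also high in MC, EC-2 and Macrophage, and Eif4enif1 is high in IC-B-2.

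In InjuredPT-A, nearly all members were above the normal proximal tubule of the same mouse, and this held in both AAI mice, the only 2 used for the comparison. Without any filter, 79 of 81 ribosomal proteins were higher in both mice and none was lower in both, where 50.8% of 16608 genes with a value were higher and 28.3% lower. Among factors 55 of 62 were higher and 5 were lower. Among genes that passed the minimum, 43.3% of all genes were called higher and 27% lower. A total of 47 ribosomal proteins passed and were called higher, but 35 of them reached 0.5 in both mice only through InjuredPT-A, so this count had to be high. Of the 32 factors that passed, 29 were higher and 1 was lower, and 11 passed in the same way. When genes were instead kept by a mean of at least 0.5 over all 92 columns, all 33 ribosomal proteins and 21 of 22 factors were called higher and 1 factor lower, where 28.1% of 4272 genes were higher. Other transcripts were higher too. All 11 mitochondrially encoded genes that passed were called higher, with medians of 0.62 and 1.08, against 0.46 and 0.57 for ribosomal proteins. Of 16 abundant proximal tubule mRNAs, 8 were called higher and 6 lower. Their part in the result was not tested.

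Gene length differed between the members and other genes, and calls in this comparison varied with it. The median span was 3.37 kb for ribosomal proteins, 17.7 kb for factors and 22.8 kb for all genes. In InjuredPT-A 73.7% of the genes under 30 kb were called higher, against 32.3% of those between 30 and 100 kb and 6.74% of those over 100 kb. In the same comparison 71.7% of genes over 100 kb were lower. Only 1 ribosomal protein spanned more than 30 kb, and the part of gene length in the result was not tested. Of the factors, 48 were under 30 kb.

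Single initiation factors had the largest differences in InjuredPT-A. All 4 genes for subunits of eIF2 were called higher, though Eif2s1 and Eif2s3x were below 0.5 in the normal proximal tubule. Eif2s2, the beta subunit of eIF2, which carries the initiator tRNA, was 3.25 against 0.738 in the normal proximal tubule of control with AAI and 3.45 against 0.741 in hKLF6 OE with AAI, or 4.41 and 4.66 times as high. In InjuredPT-A of the mice without AAI it was 1.22 in control and 1.73 in hKLF6 OE, above the normal proximal tubule but below InjuredPT-A of the AAI mice. Eif3a, the largest subunit of the eIF3 scaffold, was 4.48 against 1.15 and 4.05 against 1.11 (differences of 1.35 and 1.26). Its InjuredPT-A level in the mice without AAI was 0.283 in control and 2.49 in hKLF6 OE, which did not match each other.

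Members of the cap-binding complex were also higher in InjuredPT-A, where Eif4g3 was the exception. Eif4a1, the RNA helicase of the complex, was 2.92 against 0.843 in control with AAI and 3.76 against 0.691 in hKLF6 OE with AAI (differences of 1.09 and 1.49). Eif4ebp2, a repressor that binds eIF4E, was 4.07 against 1.14 and 2.97 against 0.878 (1.24 and 1.08). Eif4e itself was 1.90 and 2.02 in the AAI mice (0.65 and 0.73), but was listed at 0 in InjuredPT-A of control and was 0.483 in that of hKLF6 OE. The helicase, the repressor and the cap-binding factor were thus higher together. Eif4g3, a scaffold of the complex and the only member with a span over 100 kb (215 kb), was lower, at 1.54 against 4.55 and 1.49 against 3.96 (-1.13 and -0.99). The related scaffold Eif4g1 was higher, at 3.16 and 2.89, by 0.67 and 0.38.

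Of the remaining initiation and elongation factors, Eif5, which triggers GTP hydrolysis on eIF2, was 5.41 against 2.12 in control with AAI and 5.38 against 2.02 in hKLF6 OE with AAI (1.04 and 1.08). Eif2ak3 was 2.11 and 1.48 in InjuredPT-A of these mice against 0.737 and 0.804 (0.84 and 0.46). The other 3 eIF2 kinases were below the minimum of 0.5 on both sides in both mice. Among subunits of eIF2B, the exchange factor that recharges eIF2, Eif2b4 was higher by 0.49 and 0.62, and Eif2b3 differed by -0.12 and -0.21, which was not called. Eef1a1 was 9.26 against 4.59 and 9.50 against 3.59 (0.88 and 1.19), and Eef2 was 3.21 against 1.58 and 2.76 against 1.27 (0.71 and 0.73). Eef1a1, Eef2 and Eif5 were each at least 2 times as high as in the normal proximal tubule in both mice.

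Among ribosomal proteins in InjuredPT-A, those with the largest differences included genes of both subunits. Rpl6 was 2.00 against 0.732 in control with AAI and 1.68 against 0.529 in hKLF6 OE with AAI (differences of 0.79 and 0.81). Rpl23 was 1.85 against 0.675 and 1.72 against 0.512 (0.77 and 0.85). Rpl5 and Rpl11, which bind the p53 regulator MDM2 when ribosome assembly fails, differed by 0.81 and 0.56 and by 0.53 and 0.53. Rpsa, a small subunit protein also known as the laminin receptor, was 2.00 against 0.915 and 1.88 against 0.859 (0.65 and 0.63). Of the stalk proteins, which recruit the elongation factors, Rplp0 was higher by 0.51 and 0.67 and Rplp1 by 0.26 and 0.66. Rps27l, a paralog that is a p53 target, was 0.747 against 0.383 and 1.20 against 0.406 (0.34 and 0.64).

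**Figure D4:**
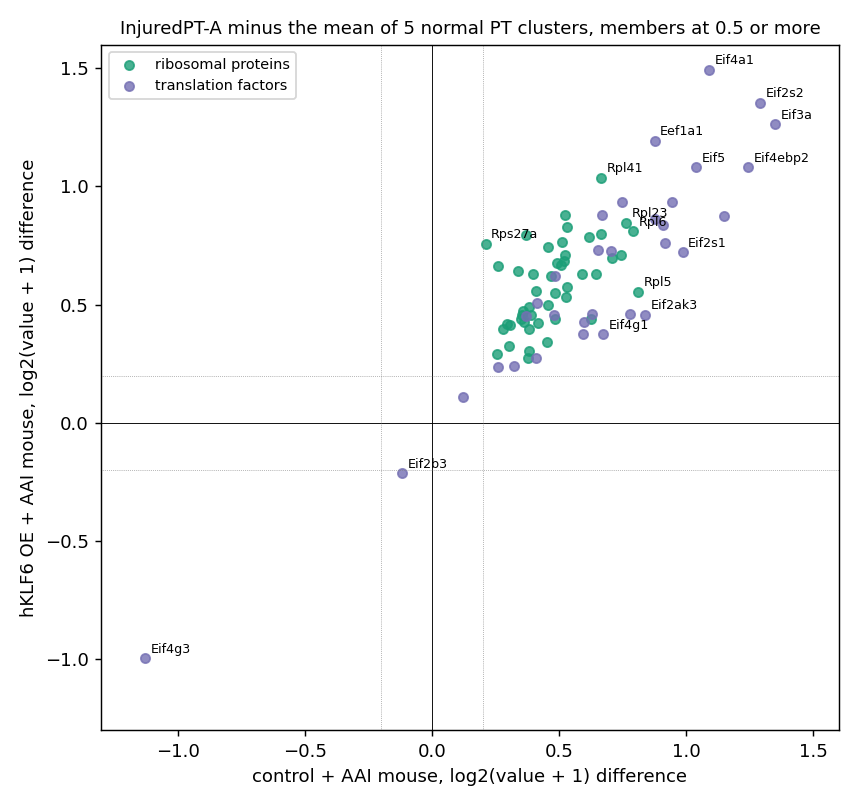
Difference in log2(value + 1) between InjuredPT-A and the averaged normal proximal tubule in the control mouse with AAI (horizontal) and the hKLF6 OE mouse with AAI (vertical), for members with a value of at least 0.5 on either side in both mice; dotted lines mark 0.2. All 47 ribosomal proteins lie in the upper right with 29 factors, and Eif4g3 lies at the lower left.

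InjuredPT-A of the AAI mice was also set against the same cluster of the mice without AAI. No ribosomal protein was then called higher in both genotypes and 19 were lower. Of the factors, 16 were higher and 5 lower, where 37.2% of all genes were higher and 19.7% lower. The number of factors that passed is not given here, so their counts are not read as a departure from those shares. Rplp0 was 2.71 in control and 4.93 in hKLF6 OE without AAI, and 1.68 and 1.80 with AAI. Eef2 was likewise lower with AAI, at 7.77 and 6.50 without it and 3.21 and 2.76 with it. Eif4ebp2 ran the other way, at 0.642 and 1.18 without AAI and 4.07 and 2.97 with it. The columns of InjuredPT-A without AAI were those with 62.6% and 40.8% of genes at 0 and with the mitochondrial shares of 6.22% and 7.69%, and the part of these in the difference was not tested.

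In InjuredPT-B, the other injured cluster, the factors differed less from the normal proximal tubule and only 1 ribosomal protein was called. Without a filter, 47 of 81 ribosomal proteins were higher in both AAI mice and 5 lower in both, and 45 of 62 factors were higher and 4 lower, against 41.5% higher and 26% lower over all genes. Of 19 ribosomal proteins that passed the minimum, only Rpl27a was called, higher by 0.21 and 0.31, where 23.4% of all genes were called higher and 13.1% lower. Of 24 factors, 10 were called higher and 1 lower. The largest was Eif2ak3, at 1.88 against 0.737 in control with AAI and 1.80 against 0.804 in hKLF6 OE with AAI (0.73 and 0.63). Its InjuredPT-B levels in the mice without AAI were 0.323 in control and 0.242 in hKLF6 OE, so it was higher with AAI in both genotypes, though at least 50% of genes were at 0 in those columns. Eif5 was higher by 0.40 and 0.37 and Eif4a1 by 0.36 and 0.33. Eif4g3 was again the lower one, at 3.14 against 4.55 and 2.82 against 3.96 (-0.42 and -0.38).

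Between the 2 injured clusters of the same mouse, 72 of 81 ribosomal proteins were higher in InjuredPT-A than in InjuredPT-B in both AAI mice and none was lower in both. Of the factors, 45 were higher and 5 lower, where 45% of all genes with a value were higher and 27.8% lower. In summed share, InjuredPT-A had 0.646% ribosomal proteins against 0.370% in InjuredPT-B of control with AAI and 0.660% against 0.273% in hKLF6 OE with AAI. The mitochondrial share also differed, at 1.84% against 1.11% and 2.34% against 0.912%. Per mitochondrially encoded transcript, ribosomal proteins were 0.352 in InjuredPT-A and 0.334 in InjuredPT-B of control, and 0.282 and 0.299 in hKLF6 OE, so the order held in 1 genotype and was the opposite in the other. Polr2a, the large subunit of RNA polymerase II and a leading gene of InjuredPT-A, was 24.3 and 23.3 in InjuredPT-A of these mice and 4.70 and 4.14 in InjuredPT-B.

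AAI went with more ribosomal protein transcripts in the normal proximal tubule of the control genotype and with fewer in that of hKLF6 OE. Without a filter, 59 of 81 ribosomal proteins were higher and 22 lower with AAI in control, where 47.5% of all genes were higher and 52.5% lower. In hKLF6 OE 11 were higher and 70 lower, where 45.1% of all genes were higher and 54.9% lower. These 2 comparisons share no mouse. The summed share was 1.20 times as high with AAI in control and 0.614 times in hKLF6 OE. The 16 proximal tubule mRNAs were lower with AAI in both, at 0.799 and 0.640 times. Per such mRNA the ribosomal protein share was 1.50 times as high with AAI in control and 0.975 times in hKLF6 OE. That ratio has a divisor that was itself lower with AAI, so it cannot show whether ribosomal proteins changed. The part of these mRNAs in the result was not tested. Eef1a1 went the same way, from 3.08 to 4.59 in control (0.45) and from 5.74 to 3.59 in hKLF6 OE (-0.55). Its level without AAI was lower in control than in hKLF6 OE, and with AAI the order was the opposite.

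In control, 7 of 23 ribosomal proteins that passed were called higher with AAI and none lower, where 11.7% of all genes were called higher and a similar share lower. They included Rpsa, at 0.542 without and 0.915 with AAI (0.31), and Rpl7, at 0.493 and 0.782 (0.26). Of 23 factors 2 were higher, Eef1a1 and Eif4g3, the latter at 3.36 without and 4.55 with AAI (0.35). The count of ribosomal proteins was 3 when the 3 clusters of segment S3 were used alone and 11 with the 2 clusters of segments S1 and S2. Eif4g3 was thus higher with AAI in the normal tubule but lower in both injured clusters than in the normal tubule.

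In hKLF6 OE, 29 of 35 ribosomal proteins that passed were called lower with AAI and none higher (26 of the 33 kept by their mean over all columns), where 15.4% of all genes were called lower and 19.5% higher, and 32.5% of genes under 30 kb were lower. Rpl29, a basic protein of the large subunit, was 0.628 without and 0.137 with AAI (-0.52). Rplp1 was 0.804 and 0.310 (-0.46), and Rpl7 was 1.05 and 0.495 (-0.46). Of 24 factors, 5 were lower: Eef1a1, Eif1 (1.13 and 0.550), Eef2 (2.05 and 1.27), Eif5a (0.717 and 0.445) and the repressor Eif4ebp2 (1.16 and 0.878). Eif4g3 (3.10 and 3.96) and Eif2ak3 (0.561 and 0.804) were higher, by 0.28 and 0.21. The mitochondrial share was lower with AAI in both genotypes, so it moved with the ribosomal protein share in hKLF6 OE and against it in control.

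**Figure D5:**
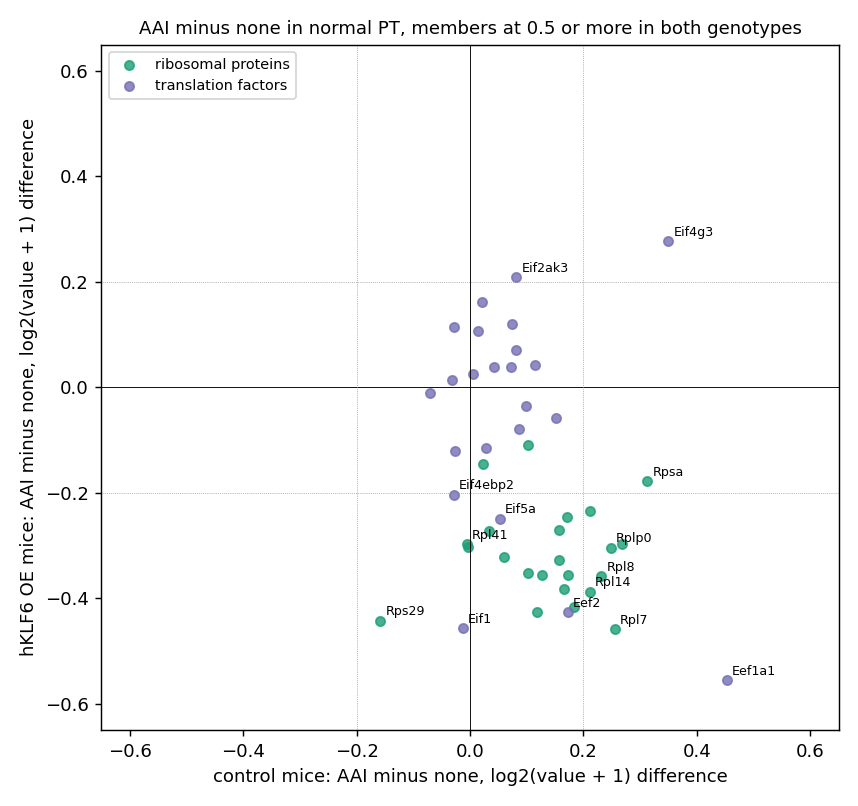
Difference in log2(value + 1) between AAI and no AAI in the normal proximal tubule of control mice (horizontal) and hKLF6 OE mice (vertical), for the 46 members with a value of at least 0.5 in both genotypes; dotted lines mark 0.2. The lower right quadrant holds 20 of 23 ribosomal proteins and 7 of 23 factors, with Eef1a1 farthest out, and Eif4g3 lies at the upper right.

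The lower share in hKLF6 OE was present in every cluster, and the higher one in control in most. The summed ribosomal protein share was lower with AAI in 23 of 23 clusters in hKLF6 OE, from 0.408 times in podocytes to 0.853 times in Macrophage, with a median of 0.579. In control it was higher in 20 of 23, from 0.798 times in Macrophage to 1.42 times in MC, with a median of 1.09. Of the 33 ribosomal proteins of mean 0.5 or more, 30 were lower with AAI in at least 20 clusters in hKLF6 OE (90.9%, against 10.3% of all genes) and 4 were higher in at least 20 clusters in control (12.1%, against 5.29%), where 1 was lower (4.42% of all genes). Of the 22 factors, 4 were lower in hKLF6 OE (18.2%) and 2 higher in control. The factor share was higher with AAI in 20 clusters in control and lower in 19 in hKLF6 OE, with medians of 1.13 and 0.870. Per mitochondrially encoded transcript, ribosomal proteins were higher with AAI in all 23 clusters in both genotypes, with medians of 1.79 in control and 1.34 in hKLF6 OE. The proximal tubule mRNAs were themselves lower with AAI in all 23 clusters in both, with medians of 0.754 and 0.467. Per such mRNA ribosomal proteins were higher with AAI in 23 clusters in control (median 1.53) and in 20 of 23 in hKLF6 OE (median 1.18). Because this divisor was itself lower with AAI, the ratio cannot show whether ribosomal proteins changed. The lower share in hKLF6 OE kept its direction when mitochondrial transcripts or Malat1 were left out of the total.

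Without AAI, ribosomal protein transcripts were higher in hKLF6 OE than in control in every cluster. This comparison shares its 2 mice with the AAI comparisons, so the values are not independent of them. The normal proximal tubule mean was 1.64 times as high, and clusters ranged from 1.35 times in Macrophage to 2.20 times in MC. Without a filter, 67 of 81 were higher and 14 lower, and 49 of 62 factors were higher and 13 lower, where 50.9% of all genes were higher and 49.1% lower. Of 35 that passed the minimum 31 were called higher and none lower (28 of the 33 kept by their mean over all columns), where 7.84% of all genes were called higher and 9.33% lower, and 19.5% of genes under 30 kb were higher. Of the 33 ribosomal proteins of mean 0.5 or more, 27 were higher in at least 20 clusters (81.8%, against 5.24% of all genes), as were 5 of 22 factors (22.7%). The mitochondrial share was also higher in all 23 clusters, with a median of 1.37 times, and its part in the result was not tested. Per mitochondrially encoded transcript, ribosomal proteins were still higher in 23 clusters (median 1.20) but factors were lower in 20 (median 0.863). Per proximal tubule mRNA, ribosomal proteins were also higher in 23 clusters (median 1.36).

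The values behind these counts were low for single genes. Rpl7 was 0.493 in the normal proximal tubule of control and 1.05 in that of hKLF6 OE, 2.14 times as high (0.46). Rplp0 was 0.585 and 1.17 (0.45), and Rpsa was 0.542 and 1.10 (0.45). Each of these 3 had a higher value in hKLF6 OE than in any other mouse. The 4 factors called higher were Eef1a1, at 3.08 and 5.74 (0.72), Eef2, at 1.29 and 2.05 (0.41), Eif1, at 0.723 and 1.13 (0.30), and Eif5a, at 0.464 and 0.717 (0.23). These were the same 4 factors whose levels followed the ribosomal proteins most closely over the columns, and those correlations include these mice. Eif4g1 (1.57 and 1.68) and Eif4g3 (3.36 and 3.10) were not called.

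With AAI, hKLF6 OE was slightly below control. This comparison uses the AAI mice of both earlier contrasts and is not independent of them. Without a filter, 23 of 81 ribosomal proteins were higher and 58 lower, and 19 of 62 factors were higher and 43 lower, where 47.1% of all genes were higher and 52.9% lower. Of 23 that passed 6 were called lower, where 7.74% of all genes were lower and 6.32% higher. Rpl21 was 0.615 in control with AAI and 0.340 in hKLF6 OE with AAI (-0.27), and Rpl18 was 0.621 and 0.362 (-0.25). Eef1a1 was the factor called lower (-0.28) and Eif4g1, at 1.61 and 2.00, the one called higher (0.20). The summed share was 0.839 times that of control in the normal proximal tubule and was lower in 19 of 23 clusters, and 5 of 33 ribosomal proteins were lower in at least 20 clusters (15.2%, against 3.02% of all genes) and none was higher (1.71%).

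Ribosomal proteins with and without the TOP run at the annotated start had similar ratios in every comparison. The split rests on the annotated base: 13 of 61 had the run there, but 29 had it within 5 bases. It therefore cannot separate mRNAs that have the motif from mRNAs that lack it. In InjuredPT-A the summed value of those with it was 2.37 times the normal proximal tubule in control with AAI and that of those without it 2.36 times, and 3.01 and 2.73 times in hKLF6 OE with AAI. With AAI in the normal proximal tubule the ratios were 1.15 and 1.21 in control and 0.620 and 0.650 in hKLF6 OE. For hKLF6 OE against control without AAI they were 1.56 and 1.61. Rps6 and Rplp2, whose windows are printed above, were below 0.5 in the normal proximal tubule of both AAI mice, at 0.221 and 0.182 and at 0.128 and 0.113. The large subunit sum was 1.39, 1.41, 1.40 and 1.26 times the small subunit sum in the normal proximal tubule of control, control with AAI, hKLF6 OE and hKLF6 OE with AAI.

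Other genes of the pathway, from lists of textbook members, were counted in the same way. In InjuredPT-A, 18 of 23 ribosome biogenesis genes that passed were higher and 1 was lower, the helicase Ddx10. Over all genes 43.3% were higher and 27% lower. Only 3 genes of this list reached 0.5 in the normal proximal tubule of either AAI mouse. Most thus passed only through InjuredPT-A, so this count had to be high. Without a filter 48 of 54 were higher and 3 lower, where 50.8% of all genes with a value were higher and 28.3% lower. Of the targets of the integrated stress response, which the eIF2 kinases start, 7 of 8 that passed were higher. They were Atf4, Ddit3, Sesn2, Ppp1r15b, Cebpb, Gadd45a and Gdf15. Of this list, 4 reached 0.5 in the normal proximal tubule of either AAI mouse. The others passed only through InjuredPT-A, so part of the count had to be high. Without a filter 12 of 18 were higher and 2 lower. Sesn2 was also on a list of p53 targets, of which 18 of 21 that passed were higher and 2 lower. Of the p53 targets, 14 reached 0.5 in the normal proximal tubule of either AAI mouse, so the same limit holds for their count. Without a filter 25 of 29 p53 targets were higher and 2 lower. The part of the eIF2 kinases and of p53 in these values was not tested. Of cytosolic aminoacyl-tRNA synthetases 8 of 12 were higher and of termination, recycling and poly(A)-binding factors 5 of 9. Of the synthetases, 4 reached 0.5 in the normal proximal tubule of either AAI mouse. Without a filter 18 of 22 synthetases were higher and 0 lower, and 11 of 12 genes of the other list were higher and 1 lower. Of mTOR pathway genes 6 of 15 were higher and 5 lower, and without a filter 13 of 28 were higher and 7 lower. In the normal proximal tubule of hKLF6 OE without AAI none of 5 biogenesis genes, 4 synthetases, 2 stress response targets or 12 mTOR pathway genes was called higher or lower against control.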

How the data were processed

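The deposited table gives, per the labels and the study's methods, the mean normalised signal of each gene over the nuclei of each of 23 clusters in each of 4 mice. The authors aligned reads to a mouse pre-mRNA reference with Cell Ranger and normalised and clustered nuclei with Seurat. All libraries were prepared and sequenced as 1 batch. Every column summed to 10000, and no column was left unused. Of 19632 rows, 23 whose names had turned into dates were left out. Cluster names follow the order of the study's marker lists and were checked against marker genes. Because values were means and not counts, and because each group had 1 mouse, no test was run.

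The normal proximal tubule was the unweighted mean of 5 clusters. Differences were of log2(value + 1) with a minimum of 0.5 and a threshold of 0.2. Members and gene lists were chosen with earlier results of these data known. For each comparison the text names up to 6 ribosomal proteins and 6 factors of largest difference, members called against their group's direction, and members fixed by role. An item that the rule names is not reported here. Other genes named were singled out after their values were seen. RefSeq start sites were searched for the letters given. Calculations used Python 3.11.15 with pandas 2.3.3, numpy 2.4.6 and scipy 1.17.1, and were tested on simulated data. Alternatives were another pseudocount, minimum and threshold, centring on all genes, single proximal tubule segments, leaving out each mouse and leaving out mitochondrial transcripts or Malat1 from the total. Comparing clusters with under 40% of genes at 0, genes of the same length class, and genes kept by their mean over all columns, were added after seeing the data.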

Additional observations from a re-analysis of the deposited data

Results flagged for a closer look

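The effect of AAI had opposite signs in the 2 genotypes for the summed share of both groups of genes in the normal proximal tubule. With 1 mouse per group the difference between genotypes was not tested. The ratio of the AAI fold in control to that in hKLF6 OE was 1.96 for the summed share of ribosomal proteins (1.20 against 0.614) and 1.26 for that of translation factors (1.13 against 0.896). With AAI in hKLF6 OE the summed factor value fell by 4.00 and the sum of Eef1a1, Eef2 and Eif1 alone fell by 3.51, and without these 3 genes the factor folds were 1.09 and 0.983. Of 24 factors that passed there, 12 were higher and 12 lower. Per abundant proximal tubule mRNA the ribosomal protein folds were 1.50 and 0.975. The ribosomal protein share was higher with AAI in control and lower in hKLF6 OE in 20 clusters, and the factor share in 17. On the log2(value + 1) scale the AAI difference in control minus that in hKLF6 OE was 1.01 for Eef1a1, 0.71 for Rpl7, 0.60 for Rpl14, 0.59 for Rpl8, 0.55 for Rplp0 and 0.45 for Rps15. These genes were among 24 called higher in control and lower in hKLF6 OE, which was 0.617% of those tested in both.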

How the results depend on the processing

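No paired analysis was possible because each group has 1 mouse. With a minimum value of 2, ribosomal proteins called numbered 0 of the former 47 higher in InjuredPT-A, 0 of 7 higher and 29 lower with AAI, 0 of 31 higher and 6 lower in hKLF6 OE and 0 of 19 lower in PT-S3-2, and 1 higher in MC (25) and 1 in EC-2 (13), since few reach that value. Factors called then numbered 13 of 29 in InjuredPT-A, 3 of 10 in InjuredPT-B, 2 of 5 lower with AAI in hKLF6 OE, 2 of 4 higher in hKLF6 OE and 2 of 7 in MC. With a threshold of 0.5 they numbered 16, 1, 1, 1 and 2, and ribosomal proteins 18 in InjuredPT-A, 0 and 1 with AAI in control and hKLF6 OE, 0 in either comparison of hKLF6 OE with control, 2 in MC, 0 in EC-2 and 0 in PT-S3-2. With a pseudocount of 0.1, ribosomal proteins numbered 17 higher with AAI in control, 14 lower in hKLF6 OE with AAI and 29 higher in EC-2. After centring on the median of all genes, 25 ribosomal proteins were higher in InjuredPT-A, 3 factors in InjuredPT-B and 10 ribosomal proteins lower in PT-S3-2. Against the same cluster without AAI, ribosomal proteins higher in InjuredPT-A numbered 0 (19 were lower), factors 16, and factors higher in InjuredPT-B 5. With AAI in control, 3 ribosomal proteins were higher in the PT-S3 clusters and 11 in the PT-S1-S2 clusters. Leaving out 1 mouse at a time gave 25 to 36 ribosomal proteins and 7 to 11 factors higher in MC (11 without control with AAI), 15 to 20 ribosomal proteins higher in EC-2 (20 without hKLF6 OE) and 19 to 22 lower in PT-S3-2. The causes were not tested. The other 98 alternative values kept their direction and size, among them the counts over genes with a mean of at least 0.5 over all columns. All folds of summed shares, also with mitochondrial transcripts or Malat1 left out, were among them too. The number of clusters with a higher summed share also kept its direction, including in the 12 clusters with under 40% of genes at 0. Of named members, 68 values kept their call after centring, 78 with mitochondrial transcripts left out and 77 with a pseudocount of 0.1. Of the rest 9 lost it and 2 gained it, and none changed direction. Depth per column is unknown, so the precision of low values is too.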
